A study of Mus musculus with 6 samples.

Results

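Genes for potassium, calcium and sodium channels were followed in mouse adrenal glands labelled as a conditional knockout of Gata6, a zinc finger transcription factor, and in control glands. The set holds every gene whose array symbol begins with Kcn followed by letters and a number, with Cacna, Cacnb or Cacng and a number, or with Scn and a number. This rule took 252 probes for 129 genes, out of 45281 probes on the array, and comprised 90 potassium, 25 calcium and 14 sodium channel genes. A total of 3 glands were labelled cKO, from Gata6 knockout animals, and 3 were controls from animals labelled normal. All of them came from adult virgin females of strain B6.FVB, each hybridised to its own Illumina bead array, a chip on which oligonucleotide beads capture labelled cRNA. The sources used here give neither the driver nor the timing of the deletion. They also leave unsaid if each gland stands for 1 animal, and the p-values therefore cover only variation among these samples, possibly technical.

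The channels named here set the membrane voltage and carry calcium into cells. In the adrenal cortex, background potassium channels hold glomerulosa cells at a negative voltage, and angiotensin or raised potassium depolarises them, opening voltage-gated calcium channels whose calcium drives aldosterone synthesis. In the medulla, chromaffin cells fire action potentials carried by sodium and calcium channels, shaped by voltage-gated and calcium-activated potassium channels, and the calcium that enters triggers release of catecholamines. Each pore is formed by a large subunit, while smaller accessory subunits change its gating or its transport to the membrane.

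At a detection p-value under 0.05, between 18314 and 19007 probes were detected on a control array and between 19308 and 19459 on an array labelled cKO. Of the channel probes, 60 to 66 were detected on a control array and 69 to 79 on an array labelled cKO, and the part of this in the differences was not tested. Levels are given in log2 units after background correction and quantile normalization, and each difference is the mean of the arrays labelled cKO minus that of the controls. The lowest signal that counted as detected was 5.11 to 5.25 log2 units per array, so a level near 5 lies at the background. A gene was tested if a probe was detected on at least 3 of the 6 arrays, and its brightest tested probe, by the mean over the 6 arrays, stood for it. Gata6 itself read 11.80, 11.66 and 11.71 in the controls and 11.99, 12.06 and 12.31 on the arrays labelled cKO. It was therefore higher on the arrays whose label names it as knocked out, by 0.40 (SE 0.10, limma adjusted p = 0.0545), and all directions are given for the arrays so labelled. A probe outside the deleted part would check nothing, and the position of this one is unknown here. The tissue label was borne out by the steroidogenic genes Star and Cyp11b1 and the chromaffin gene Th, each detected on all 6 arrays.

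In bulk adrenal RNA, 47 of the 129 channel genes were detected well enough to be tested, 20 were detected on 1 or 2 arrays and 62 on 0 arrays. Among the sodium pores 1 of 10 was tested and among the voltage-gated potassium pores 10 of 40, against 9 of 15 potassium accessory subunits and 7 of 13 tandem-pore-domain potassium channels. Of the members known from adrenal physiology, the calcium pores Cacna1a, Cacna1b and Cacna1g, the sodium pore Scn9a, and Kcne2, Kcne3, Kcnmb2 and Kcnn3 were detected on 0 arrays. Kcnj5, an inwardly rectifying potassium channel of the zona glomerulosa, was detected on 2 arrays, both labelled cKO, and Kcnmb1 on 1 array of each label. Not being detected on this platform says only that the signal did not exceed background.

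**Figure D1:**
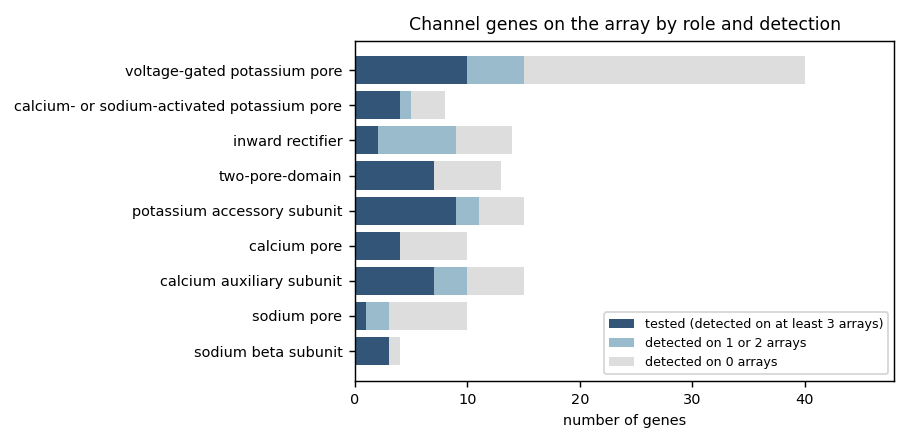
Number of channel genes on the array (x axis) in each functional role (y axis), split into genes tested, genes detected on 1 or 2 arrays and genes detected on 0 arrays. Of 129 genes, 47 were tested, and of the 40 voltage-gated potassium pores 25 were detected on 0 arrays.

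On the arrays labelled cKO, 3 channel genes rose and 1 fell. Those that rose were Kcnip3, Kcnmb4 and Cacng5, all of them accessory subunits or their relatives, and the one that fell was Kcnj8, a potassium pore. That is 8.51% of the 47 tested, against 6.98% of all 13327 genes tested. By direction, 6.38% of the tested channel genes rose against 4.34% of all genes, and 2.13% fell against 2.64%. Under the main settings these shares lie near those of the array as a whole. Under median scaling 17.0% of the tested channel genes were called, against 7.35% of all genes. With array weights it was 19.1% against 9.54%. The median difference of the tested channel genes was 0.01, and that of all genes was -0.01. At an unadjusted p under 0.05 there were 18 of the 47 channel genes (38.3%), or 15 higher and 3 lower, where 23.7% of all genes reach that level. For all genes this level was not split by direction, so the 15 and 3 have no share beside them. In 18 of the 47 genes (38.3%) both labels formed separate ranges with no overlap, which was the case for 29.0% of all genes. Of the 47, 34 were detected on all 6 arrays on their representative probe, and 4 were detected on 0 arrays of one group, which passed the filter only through the other group. These 4 were Kcnmb4, Cacng5, Kcne1l and Cacna1e, and none of them had overlapping labels. The counts of rises and of separate ranges are therefore not independent of the filter. In bulk tissue, fewer cells of a type and less RNA per cell cannot be told apart.

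**Figure D2:**
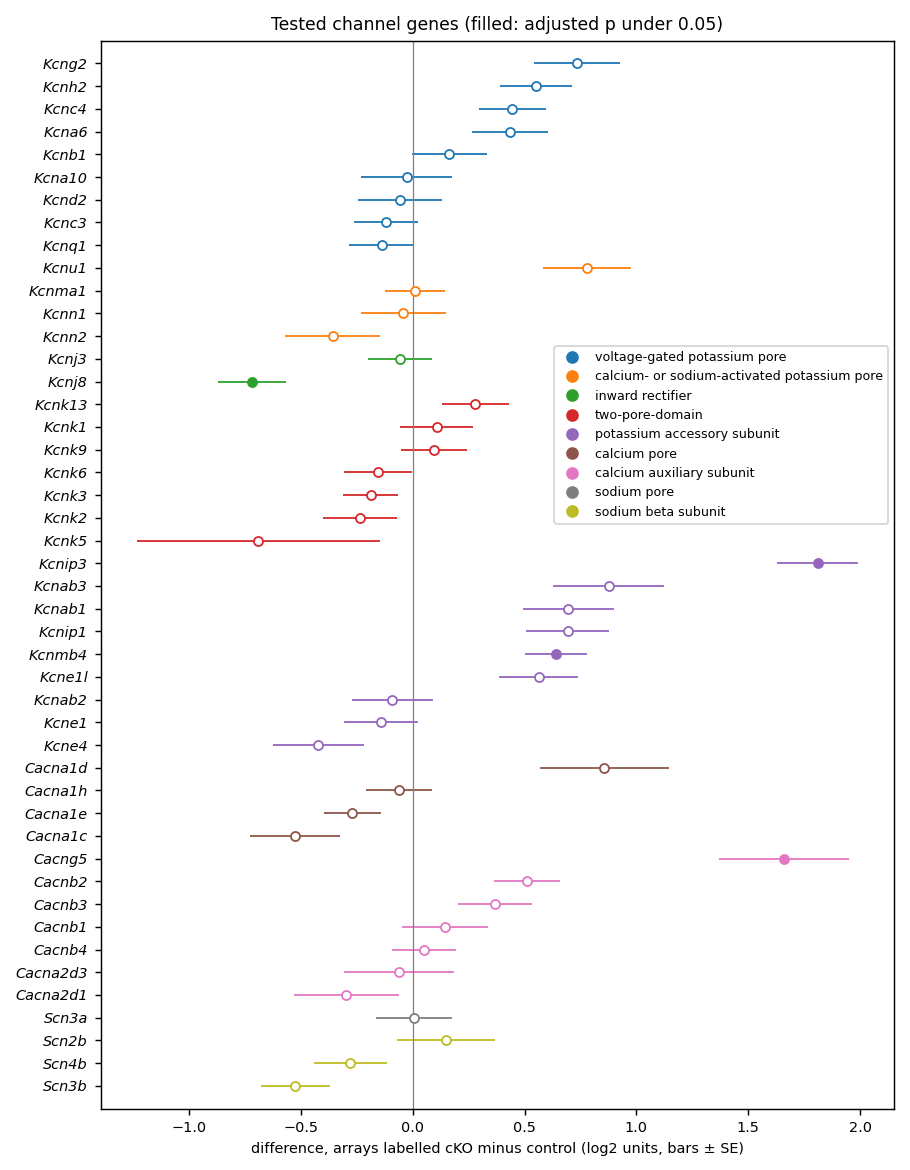
Difference in level between the arrays labelled cKO and control (x axis, log2 units, bars are ± SE, 3 arrays per group) for 46 of the 47 tested channel genes, grouped and coloured by role. Filled points passed an adjusted p under 0.05, and Kcnip3 at 1.81 and Kcnj8 at -0.72 are the furthest of the filled points on each side.

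Kcnip3 encodes a calcium-binding EF-hand protein, also called calsenilin or DREAM, which assembles with A-type potassium channels and can also act as a transcriptional repressor. It read 6.61, 6.50 and 6.63 in the controls and 8.51, 8.02 and 8.64 on the arrays labelled cKO. Every cKO value lay more than a log2 unit above every control value. The means were 6.58 ± 0.07 (SD, n = 3) and 8.39 ± 0.33 (n = 3), a rise of 1.81 (SE 0.18, limma adjusted p = 0.00171), or 3.51-fold. It has 1 probe on the array, so no second probe bears on it. Under the 16 alternative settings its difference ran from 1.51 to 2.01, and it passed in all 16, which no other channel gene did.

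Kcnmb4, a beta subunit of the large-conductance calcium-activated potassium channel that is abundant in neurons, rose on both of its probes. The probe that represents it read 4.96, 4.88 and 5.12 in the controls, where it was detected on 0 of 3, and 5.63, 5.58 and 5.67 on the cKO-labelled arrays. The groups did not overlap, but the control values are background. Its measured means were 4.99 and 5.63, the level was at least 1.34-fold higher, and the fitted difference was 0.64 (SE 0.14, adjusted p = 0.0299). Its other probe behaved likewise, with 0 of 3 control arrays detected and a level at least 1.22-fold higher (adjusted p = 0.0381). The Kcnmb4 call was lost with no filter (adjusted p = 0.0693) and without the first or the second control array (0.0814 and 0.0911), and the gene could not be tested without any 1 of the arrays labelled cKO or under the strict detection rule. With the authors' processed values its difference was 1.40, and at an offset of 50 it was 0.34, both past the threshold. The pore gene of the same channel, Kcnma1, read 6.85, 6.94 and 6.92 against 6.88, 6.96 and 6.90, with overlapping groups and a difference of 0.01 (SE 0.13, 95% interval -0.29 to 0.32). A further Kcnma1 probe lay higher on every array labelled cKO than on any control and differed by 0.19 (SE 0.14, adjusted p = 0.451).

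Cacng5 belongs to the gamma subunit family of calcium channels and is known mainly for modulating AMPA-type glutamate receptors. Its called probe read 4.81, 4.84 and 4.92 in the controls, again detected on 0 of 3, and 6.91, 5.75 and 6.88 on the cKO-labelled arrays. The second array labelled cKO was much closer to the controls than the other two. The means were 4.86 and 6.51, the level was at least 2.47-fold higher, and the fitted difference was 1.66 (SE 0.29, adjusted p = 0.0142). A further Cacng5 probe read 5.09, 5.05 and 5.36 against 5.17, 5.30 and 5.02 and differed by -0.005 (SE 0.15, adjusted p = 0.990). One more Cacng5 probe was too dim to be tested, being detected on 0 control arrays and on 2 labelled cKO (detection p-values 0.0118, 0.0513 and 0.0107 there, against 0.599, 0.944 and 0.559). The tested probes of Cacng5 therefore disagree, and the call rests on 1 of them. Its size moved with the processing, to 1.02 at an offset of 50, 3.11 with the authors' processed values and 0.83 as the mean of the tested probes, all past the threshold. The call was lost without the second control array (adjusted p = 0.0511), and without any 1 of the arrays labelled cKO the called probe no longer had the 3 detected arrays that the filter asks for.

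Kcnj8 encodes the pore of the ATP-sensitive potassium channel of vascular smooth muscle and pericytes. It read 7.20, 7.31 and 7.10 in the controls and 6.33, 6.48 and 6.64 on the cKO-labelled arrays. The gap between the groups was wider than the range within either. Means of 7.20 ± 0.10 (SD, n = 3) and 6.48 ± 0.15 (n = 3) gave a fall of 0.72 on the log2 scale (difference -0.72, SE 0.15, adjusted p = 0.0282). The call was lost when any 1 of the 6 arrays was left out, at an adjusted p between 0.0508 and 0.0909, and under median scaling (-0.58, adjusted p = 0.0829), while the sign stayed below 0. Kcnj3, the other inward rectifier that was tested, encodes a G protein-gated pore and differed by -0.06 (SE 0.14), with values of 5.05 to 5.35, detected on 1 control and 2 cKO arrays. Of the 14 inward rectifiers on the array, 7 were detected on 1 or 2 arrays and 5 on 0.

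**Figure D3:**
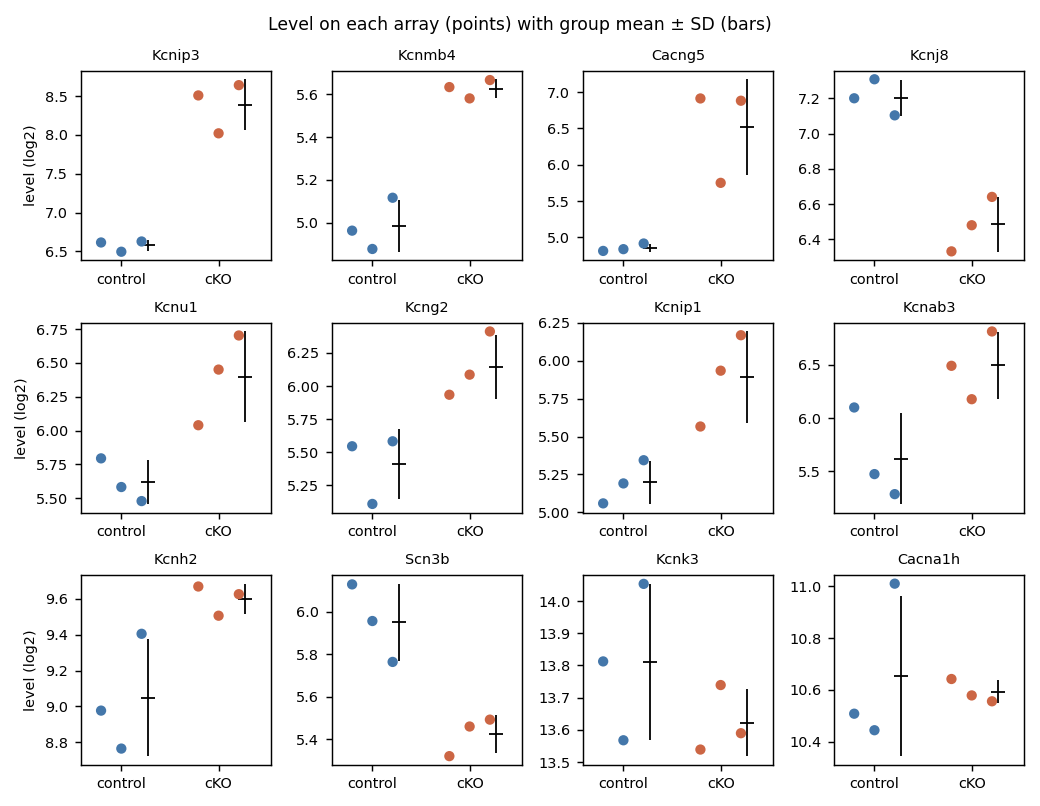
Level (y axis, log2 units, each panel with its own scale) of 12 channel genes on the 3 control and 3 cKO-labelled arrays, as points, with the group mean ± SD as a cross and bar. Kcnip3 lies at 6.50 to 6.63 on the control arrays and at 8.02 to 8.64 on the others, while the groups of Kcnk3 and Cacna1h overlap.

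Promoter sequences are shown for 3 of the 4 genes that changed, because the gene named in the knockout label encodes a protein that binds DNA at the GATA motif. They come from RefSeq on GRCm38.p6, run from 250 bases before to 50 bases after the annotated transcription start, and are written 5′ to 3′ on the gene's own strand. Capitals mark each match on either strand to a common GATA form, which is the run AGATAA with its variant ending in G, AGATAG, or the same pair starting with T, namely TGATAA with its variant TGATAG; no match here overlaps another.
Kcnip3 chr2:127521343-127521642 (minus strand): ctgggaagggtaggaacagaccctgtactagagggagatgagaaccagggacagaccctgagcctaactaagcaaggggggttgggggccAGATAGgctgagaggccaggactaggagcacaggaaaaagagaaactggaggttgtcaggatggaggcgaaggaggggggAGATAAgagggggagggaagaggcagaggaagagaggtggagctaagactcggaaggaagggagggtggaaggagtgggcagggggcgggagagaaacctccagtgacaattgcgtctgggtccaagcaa
Kcnj8 chr6:142571565-142571864 (minus strand): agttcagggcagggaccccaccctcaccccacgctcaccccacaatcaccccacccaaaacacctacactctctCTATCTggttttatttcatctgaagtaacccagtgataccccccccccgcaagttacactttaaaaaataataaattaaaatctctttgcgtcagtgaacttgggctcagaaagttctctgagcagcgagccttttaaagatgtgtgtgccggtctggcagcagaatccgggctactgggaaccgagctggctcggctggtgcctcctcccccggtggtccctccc
Kcnmb4 chr10:116473474-116473773 (minus strand): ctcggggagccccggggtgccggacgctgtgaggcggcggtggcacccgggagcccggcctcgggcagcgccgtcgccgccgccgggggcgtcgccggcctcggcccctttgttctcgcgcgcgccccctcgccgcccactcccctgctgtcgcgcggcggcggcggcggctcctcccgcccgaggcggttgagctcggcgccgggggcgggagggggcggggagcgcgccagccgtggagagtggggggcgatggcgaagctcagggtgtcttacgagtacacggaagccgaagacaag
The Kcnip3 window shown is 1 of 3 annotated for that gene and holds AGATAG, which begins 160 bases before the start, as well as AGATAA, which begins 80 bases before it, whereas the other 2 windows hold 0 matches. In Kcnj8 the match is CTATCT, the reverse complement of AGATAG, 176 bases before the start. The single Kcnmb4 window and both windows of Cacng5 hold 0 matches. Among all 32851 promoters of this length 29.8% hold at least 1 match, and among the 130 promoters of the 94 channel genes matched in RefSeq the share is 20.8%. Of the 7 windows of the 4 called genes 2 hold a match (28.6%), near the share of all promoters. A match is a run of letters and not a measured binding site, and its absence says only that these letters are not in the window.

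The remaining potassium accessory subunits lay on both sides of 0. Of the 9 tested, 6 were above 0, and the arrays did not overlap in any of these 6, where 29.0% of all genes do not, although only Kcnip3 and Kcnmb4 passed. Among the 6, Kcnmb4 and Kcne1l were detected on 0 control arrays and passed the filter only through the arrays labelled cKO. The count is therefore not independent of the filter. The same holds for the 6 of the 9 at an unadjusted p under 0.05 by limma, a level that 23.7% of all genes reach. Of all genes, 6.98% were called. Kcnab3 and Kcnab1 encode cytoplasmic beta subunits of Shaker-type channels. Kcnab3 read 6.10, 5.47 and 5.28 in the controls and 6.49, 6.18 and 6.82 on the arrays labelled cKO (difference 0.88, SE 0.25, adjusted p = 0.0753). Kcnab1 read 6.89, 6.75 and 6.74 against 7.15, 7.41 and 7.92 (0.70, SE 0.20, adjusted p = 0.0826), and its other tested probe gave 0.83 (adjusted p = 0.0729). Kcnab3 passed under median scaling over all probes and without the first control array, and Kcnab1 with array weights and without the first array labelled cKO. Kcnab2, a further beta subunit, had overlapping groups and a difference of -0.09. Kcnip1, a relative of Kcnip3 that binds the same A-type channels, read 5.06, 5.19 and 5.34 against 5.57, 5.93 and 6.17 (0.69, SE 0.19, adjusted p = 0.0626) and was detected on 1 control array. It passed under both median scalings, with array weights and without the first array labelled cKO. Kcne1l, of the family of single-span subunits, was detected on 0 control and 3 cKO arrays, with means of 4.83 and 5.39, at least 1.14-fold higher, and did not pass (adjusted p = 0.101). Kcne1 and Kcne4, of the same family, differed by -0.14 (SE 0.17) and -0.42 (SE 0.20, adjusted p = 0.263).

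Voltage-gated potassium pores gave 0 calls among 10 tested genes by limma, with 5 at an unadjusted p under 0.05, a level that 23.7% of all genes reach. Values were above 0 in 6 of them, with a range over the 10 of -0.14 to 0.73. The largest was that of Kcng2, an electrically silent subunit that modifies delayed rectifiers. Kcng2 read 5.54, 5.11 and 5.58 in the controls and 5.93, 6.09 and 6.41 on the arrays labelled cKO (0.73, SE 0.19, adjusted p = 0.0595), while its other tested probe gave 0.04 (adjusted p = 0.924). Kcnh2, the ERG channel pore, read 8.98, 8.77 and 9.40 against 9.67, 9.51 and 9.63 (0.55, SE 0.16, adjusted p = 0.0843). Its second tested probe gave 0.54 (adjusted p = 0.0720), so both Kcnh2 probes lay above the controls without passing. Kcnh2 passed with array weights and without the third control array, and Kcng2 with array weights and under both median scalings. Kcnc4, a fast-inactivating channel, read 9.38, 9.30 and 9.55 against 9.60, 9.82 and 10.15 (0.44, SE 0.15, adjusted p = 0.121), and a further probe gave 0.48. The shaker-related Kcna6 differed by a similar amount (0.44). Kcnq1, the partner of Kcne1, read between 5.03 and 5.44, was detected on 1 control and 2 cKO arrays, and differed by -0.14 (SE 0.15).

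Among potassium pores grouped as calcium- or sodium-activated, the 4 tested genes gave 0 calls, with 1 at an unadjusted p under 0.05 (23.7% of all genes). The groups follow the gene symbols, and Kcnu1 was placed in this one by its symbol alone. Kcnu1, a relative of the large-conductance channel known in mouse from sperm, read 5.80, 5.58 and 5.48 in the controls and 6.04, 6.45 and 6.70 on the cKO-labelled arrays. The groups did not overlap, and the difference was 0.78 (SE 0.20) at an adjusted p = 0.0528, just over the threshold. It passed in 6 of the 15 alternative settings in which it was tested, among them both median scalings (0.91 and 0.81) and array weights (0.84). The small-conductance genes Kcnn1 and Kcnn2 differed by -0.04 (SE 0.19) and -0.36 (SE 0.21, adjusted p = 0.358). Kcnn2 read 5.88, 5.82 and 5.92 on the control arrays against 5.23, 5.99 and 5.32, so that 1 array labelled cKO lay above all controls.

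The tandem-pore-domain channels, which carry background potassium current, gave 0 calls among 7 tested genes, and 0 at an unadjusted p under 0.05 (23.7% of all genes). Kcnk3, the acid-sensitive TASK channel of glomerulosa cells, read 13.81, 13.57 and 14.05 in the controls and 13.54, 13.74 and 13.59 on the cKO-labelled arrays. The groups overlapped and the difference was -0.19 (SE 0.12, 95% interval -0.47 to 0.09, adjusted p = 0.411). Under median scaling over the tested probes, a setting added after the data were seen, Kcnk3 read -0.46 and passed (adjusted p = 0.0300). Its close relative Kcnk9 was near the detection limit, between 4.99 and 5.34 and detected on 2 control and 3 cKO arrays, and differed by 0.10 (SE 0.15). Kcnk2, a mechanosensitive TREK channel, differed by -0.23 (SE 0.17), and Kcnk1, a weak inward rectifier of this family, by 0.11 (SE 0.16) on one probe and -0.10 on another.

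Kcnk5, an alkaline-sensitive member, was the most variable channel gene on the control arrays. It read 9.03, 9.86 and 11.58 there and 9.76, 8.95 and 9.68 on the cKO-labelled arrays. The third control array stood far above the other 5. A further probe showed the same order on the control arrays, at 5.94, 6.59 and 8.53, against 6.54, 5.52 and 6.47. The difference was -0.69 (SE 0.54, adjusted p = 0.498), and without the third control array it was 0.02 (SE 0.30). On that array the means of the 14 marker lists lay between -0.39 (erythroid) and 0.26 (skeletal muscle) around the control mean. Those of skeletal muscle, endothelial (0.23), fat (0.18) and adrenocortical genes (0.17) were the highest. For skeletal muscle this is 1 gene, since 1 of 6 was tested and 5 were detected on 0 arrays. The mean of the kidney list was -0.10, with 1 of 6 genes tested and 4 detected on 0 arrays. Whether these move with Kcnk5 for a common reason was not tested.

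Calcium pores gave 0 calls among 4 tested genes, with 2 at an unadjusted p under 0.05 (23.7% of all genes). Cacna1h, the T-type channel of glomerulosa cells, read 10.51, 10.44 and 11.01 in the controls and 10.64, 10.58 and 10.56 on the cKO-labelled arrays. The groups overlapped, with a difference of -0.06 (SE 0.15, 95% interval -0.40 to 0.27), which became 0.11 without the third control array. Cacna1d, an L-type pore found in glomerulosa and chromaffin cells, read 6.60, 5.50 and 6.02 against 7.04, 7.15 and 6.49 (0.86, SE 0.29, adjusted p = 0.121). Its dimmer probe gave 0.65 without overlap (SE 0.18, adjusted p = 0.0713), and the brighter probe passed under median scaling over all probes (0.98, adjusted p = 0.0490). Cacna1c, the L-type pore of smooth muscle and heart, read 5.71, 5.70 and 6.27 against 5.52, 5.14 and 5.45 (-0.53, SE 0.20, adjusted p = 0.161). Cacna1e, an R-type pore, was detected on 3 control arrays and 0 arrays labelled cKO. Its means were 5.24 and 4.97, the control level was at least 1.08-fold higher, and it did not pass (adjusted p = 0.251).

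Of the calcium auxiliary subunits, 7 were tested and only Cacng5 passed on its representative probe, where 6.98% of all genes passed. At an unadjusted p under 0.05 by limma there were 2 of the 7, a level that 23.7% of all genes reach. Cacnb2 encodes a cytoplasmic beta subunit that brings the pore to the membrane, and its 4 tested probes disagreed in size. Its brightest probe read 6.56, 6.37 and 6.47 in the controls and 6.95, 6.86 and 7.12 on the arrays labelled cKO (0.51, SE 0.15, adjusted p = 0.0807). A dimmer probe read 5.59, 5.53 and 5.16 against 6.83, 7.05 and 6.46 and passed (1.36, SE 0.20, adjusted p = 0.00666). The other 2 Cacnb2 probes differed by 0.08 and 0.22 with overlapping groups and did not pass. The 4 probes all lay above 0, and their mean passed when averaged over the gene (0.54, adjusted p = 0.0469). Counted by probe, 6 of 69 tested channel probes passed (8.70%), against 6.49% of all tested probes. Cacnb3, another beta subunit, read 7.33, 7.27 and 7.35 against 7.47, 7.59 and 7.98 (0.37, SE 0.16, adjusted p = 0.228), and Cacnb4 differed by 0.05. Cacna2d1, an extracellular subunit, differed by -0.30 (SE 0.23) on its brightest probe and by 0.11 and -0.10 on its others.

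**Figure D4:**
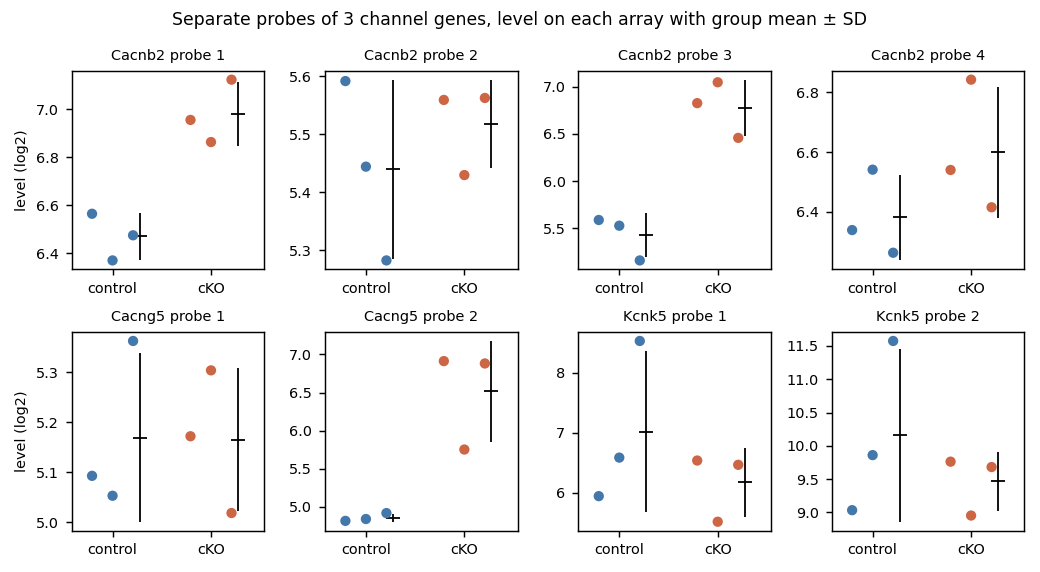
Level on each array (y axis, log2 units, separate scale per panel) for the separate tested probes of Cacnb2, Cacng5 and Kcnk5, with the group mean ± SD. Of the 4 Cacnb2 probes and the 2 Cacng5 probes, 1 each passed, and both Kcnk5 probes are highest on the third control array, at 8.53 and 11.58.

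Sodium channel genes gave 0 calls among 4 tested, with 1 at an unadjusted p under 0.05 (23.7% of all genes). Scn3a, the only pore tested, read 7.15, 7.09 and 6.73 in the controls and 6.81, 7.10 and 7.08 on the arrays labelled cKO, a difference of 0.01 (SE 0.17, 95% interval -0.38 to 0.39). Among the beta subunits, which anchor the pore and set its gating, Scn3b read 6.13, 5.96 and 5.76 against 5.32, 5.46 and 5.49. Every cKO value of Scn3b lay below every control, and the difference of -0.52 (SE 0.15) did not pass (adjusted p = 0.0828). Scn4b differed by -0.28 (SE 0.16) and Scn2b by 0.15 (SE 0.22).

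Pumps, exchangers and other channels that work beside these genes were counted for comparison, from a list of 76, of which 50 were tested. Of these, 1 rose and 1 fell, which is 4% of the 50, against 6.98% of all genes tested. At an unadjusted p under 0.05 by limma there were 13 of the 50, where 23.7% of all genes reach that level. The gene that fell was Vsnl1, a neuronal calcium sensor. Vsnl1, a marker of the zona glomerulosa, read 10.05, 10.34 and 10.12 against 9.04, 9.09 and 9.06 (-1.10, SE 0.11, adjusted p = 0.00168). The other 48 did not pass.

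Marker lists of cells that use these channels also differed between the labels. For the counts that follow, 4.34% of all tested genes were called higher and 2.64% lower. Of 19 chromaffin genes, 15 were tested and 6 rose, and the list mean lay between -0.21 and 0.15 around its control mean on the control arrays and between 0.47 and 0.69 on the arrays labelled cKO. Pnmt, which makes adrenaline, rose by 0.97 (SE 0.19, adjusted p = 0.0221). Th, Chga and Dbh of the same list differed by 0.48, 0.39 and 0.22 and did not pass (limma adjusted p = 0.113, 0.192 and 0.275). The list of Schwann and glial cells stood at 0.43 to 0.72 on the arrays labelled cKO with 1 of 4 tested genes called higher, while 5 of its 9 genes were detected on 0 arrays. Capsule fibroblast genes stood at 0.94 to 1.58 and fat genes at 0.97 to 1.65. Genes of the X-zone, a fetal remnant of the inner cortex, stood at -6.66 to -2.92, with 2 of 2 tested genes called lower. These are the arrays on which Kcnip3, Kcnmb4 and Cacng5 were high, and the part of these cell types in the rises was not tested. Beside the fall of Kcnj8, the smooth muscle and pericyte list stood at 0.20 to 0.45. Its 9 tested genes had a median difference of 0.15, and 2 were called, Acta2 at 1.82 and Myh11 at 1.37. The pericyte gene Rgs5 stood at -0.24 (SE 0.18, adjusted p = 0.481), and endothelial genes at -0.11 to 0.20 with 0 called. The zona glomerulosa list, whose cells use Kcnk3, Cacna1h and Cacna1d, stood at -0.73 to -0.32 with 2 of 6 tested genes called lower and 1 higher, and the adrenocortical list at -0.03 to 0.02.

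**Figure D5:**
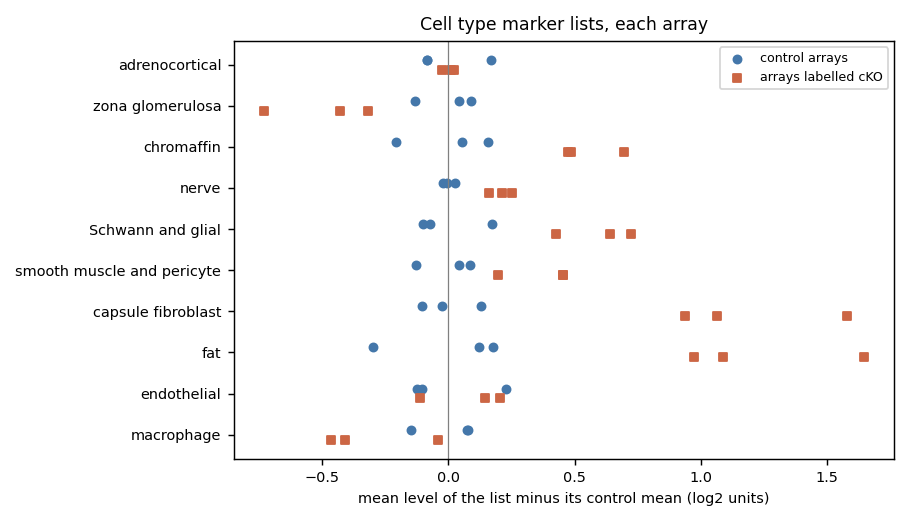
Mean level of each marker list minus its mean over the control arrays (x axis, log2 units), 1 point per array, for 10 cell types (y axis). The chromaffin, nerve, glial, smooth muscle, capsule and fat lists are higher on all 3 arrays labelled cKO than on any control array, the zona glomerulosa list is lower, and the adrenocortical list is within the range of the controls.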

How the data were processed

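Each gland gave 1 array. RNA was isolated on Qiagen RNeasy columns and labelled with biotin through an Ambion MessageAmp reaction, per the labels' protocols. The authors deposited linear intensity signals under a file title that calls them not normalized. Some background subtraction came before deposit, because 30.7% to 33.4% of an array's signals were negative. Each deposited signal has a detection p-value, per the file headers. A second deposited table, of the authors' processed intensity values, ranked the probes as the signals did (column medians 9.98 to 10.05), and how it was made is not stated in any source used here.

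Background was corrected with normexp in limma 3.58.1 (R 4.3.3), using detection p-values to estimate the background, with offset 16, followed by log2 and quantile normalization. The offset shrinks the differences of dim probes. Probes detected at p under 0.05 on at least 3 arrays were kept, 19210 for 13327 genes. Symbols are those of the file, brought up to date with RefSeq (128 of the 129 members were current, 1 was updated). The test was limma's moderated one (lmFit, then eBayes with a trend), two-sided and with no covariate. P-values were adjusted by Benjamini-Hochberg over all tested probes, with a threshold of 0.05. For a gene detected on 0 arrays of a group, the stated fold is a bound: on each of those arrays the probe was set to the array's lowest detected level, or left at its own where that was higher. With 3 arrays per group the number of arrays limits the precision.

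The members and lists were chosen with earlier results of these data known. Named are members with a called probe, in each role the brightest and the most different gene, genes of adrenal physiology, genes differing by at least 1, and genes detected on all arrays of one label and none of the other. Kcnip1, Kcnab1, Kcnab2, Kcnab3, Kcnh2, Kcna6, Kcnj3, Kcne4, Cacnb4 and Scn4b fall outside this rule and were picked with their values in view. A few genes are counted but not reported here by name. Alternatives were the offset, the matrix values, median scaling, the filter, robust variance, array weights, the replicate number as a block, the mean of probes, and leaving out each array.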

Additional observations from a re-analysis of the deposited data

How the results depend on the processing

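Against 4 channel genes called (3 higher, 1 lower), the count was 8 under median scaling (8 higher, 0 lower), 9 with array weights (8 higher), 2 under detection p under 0.01 on all arrays (1 higher), and 8 under median scaling over the tested probes (6 higher, 2 lower), a setting chosen after seeing the data. As shares of the tested channel genes, these counts were 17.0%, 19.1%, 8% and 17.0%, in that order. The shares of all genes were 7.35%, 9.54%, 7.70% and 10.7%. Averaging the tested probes of a gene gave 5 higher and 12.8% called, against 6.99% of all genes. Among the named channel genes, 2 passed under the strict detection and 7 under that last scaling. The companion count of 2 became 5 under median scaling, 4 with robust variance, 5 with array weights and 7 under scaling over the tested probes. That scaling also called 1420 of all genes, 840 of them lower, so that 40.8% of calls were higher against 62.2%, and moved the median of all genes to -0.09. Same-numbered samples deviated with correlations of 0.04, 0.04 and -0.01, and differently numbered ones with -0.11 to 0.07. With 3 arrays per group this cannot decide if the samples were paired, and the labels do not say. With the replicate number as a block, 2 channel genes passed (Cacng5 and Kcnip3, 0 lower), 2 named ones and 1 companion. The channel genes called were then 4.26% of those tested, against 5.41% of all genes. Kcnmb4 and Kcnj8 had a limma adjusted p of 0.0590 and 0.0553 with the block.

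Leaving out 1 array gave 1 to 4 channel genes (1 to 4 higher, 0 lower), 1 to 3 named ones, 1 to 3 companions and 370 to 922 genes in all (231 to 573 higher, 139 to 349 lower). The channel genes called were then 2.22% to 9.30% of those tested, against 2.85% to 7.10% of all genes. Of the 4 main calls only Kcnip3 remained without control 2 or without any 1 of the cKO arrays. Without cKO 3 another probe stood for Cacng5 (0.07), and without cKO 1 or cKO 2 the gene was not tested. Signs turned for Kcnn1 under median scaling (0.081). When 1 array was left out they turned for Kcnn1 (-0.19 to 0.086, above 0 without control 1, control 3 or cKO 1), Kcnma1 (-0.016 to 0.029, below 0 without control 1 or cKO 2), Cacna1h (-0.16 to 0.11) and Kcnk5 (-1.25 to 0.018) without control 3, Kcnk1 (-0.053 to 0.24) without cKO 2, Scn2b (-0.10 to 0.30) without cKO 3, and Scn3a (-0.12 to 0.10, below 0 without control 3, cKO 2 or cKO 3). The cause was not tested. Genes near the detection limit are bounded by signal over background. A slide block was not run, since the headers give no slide identifiers.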
